A study of Drosophila melanogaster with 24 samples.

Results

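The 4 Ada2b and 3 Spt3 ChIP-seq libraries of a study of Drosophila melanogaster SAGA subunits were compared peak by peak. The members are all peaks of these 7 libraries, chosen by the antibody in the label. They came to 22813 of the 83085 peaks in the 14 peak lists of the series, with 12149 in the Ada2b and 10664 in the Spt3 libraries. By their labels, Ada2b has the numbers 1530_1, 1530_2, 1530_3 and 1760_2, and Spt3 the numbers 1530_1, 1530_2 and 1760_2. Libraries that share a number were treated as pairs, and total chromatin of each number was also sequenced.

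SAGA is a coactivator that many genes need for transcription. Ada2b belongs to its acetyltransferase module, in which Gcn5 places acetyl groups on histone H3. In yeast, its counterpart Ada2 also sits with Gcn5 in the smaller ADA complex, which lacks Spt3. Spt3 belongs to the part of SAGA that contacts the TATA-binding protein, and Sgf11 and Non-stop to the deubiquitinase module that removes ubiquitin from histone H2B.

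All embryos were labelled as aged 1 to 3 h, at stages 4 to 6, a time when zygotic transcription begins. No mutant, transgene or treatment was named, and the fly strain was not given in the sources used here. Both antibodies were raised in rabbit, the Ada2b antibody against residues 1 to 330 of the protein and the Spt3 antibody against the full length. The embryo is a mixture of cell types, so a peak says nothing of which cells carried the protein. Nothing in the labels says that the libraries of a factor came from separate collections, and the tests then measure only the spread between these libraries.

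A peak list holds no reads, so the depth of each library is unknown. The Ada2b lists held 3262 peaks in 1530_1, 1878 in 1530_2, 1563 in 1530_3 and 5446 in 1760_2. The Spt3 lists held 2025 in 1530_1, 2328 in 1530_2 and 6311 in 1760_2. The number 1760_2 thus gave the longest list of both factors. A site with no peak in a list fell below the limit of the caller there, which is not the same as no protein.

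Peaks of both factors were narrow and of like width. The median width was 342.5, 329, 318 and 383 bp in the Ada2b libraries, against 316, 345 and 388 bp in the Spt3 libraries, in the order of the numbers above. The medians overlapped, and averaged 343 ± 28.4 bp for Ada2b (SD, n = 4) and 350 ± 36.2 bp for Spt3 (SD, n = 3). On the log2 scale the mean median width of Ada2b minus that of Spt3 was -0.03 (exact two-sided permutation of the factor labels, p = 0.714, adjusted over 16 tests p = 0.816). Width went with the score of a peak, its −log10 q value times 10. Across peaks of one library, which share that library's depth, the Spearman correlation of width and score was 0.513 to 0.613 in the Ada2b lists (n = 1563 to 5446 peaks) and 0.523 to 0.650 in the Spt3 lists (n = 2025 to 6311 peaks).

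Broad peaks were few in both. Peaks over 1000 bp were 2.18, 4.47, 3.84 and 3.58% of the Ada2b lists, and 1.88, 6.87 and 4.44% of the Spt3 lists. The Spt3 library 1530_2 had the highest share. All 5 libraries of set 1530 had their widest peak on the mitochondrial chromosome, at 11868 to 11879 bp for Ada2b and at 16109 to 16248 bp for Spt3. In both libraries of set 1760 the widest peak lay on arm 2R, at dm3 2R:3366020-3374162 for Ada2b and 2R:3366011-3374232 for Spt3, with widths of 8143 and 8222 bp.

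The summit, the base of highest signal in a peak, lay near the middle for both factors. The median distance of the summit from the centre was 15.6, 16.8, 16.7 and 18.3% of the way from centre to edge in the Ada2b libraries. It was 15.8, 20.0 and 17.6% in the Spt3 libraries. These ranges overlapped, with means of 16.8 ± 1.10% for Ada2b (SD, n = 4) and 17.8 ± 2.11% for Spt3 (SD, n = 3), and the exact permutation test gave p = 0.514. Summits fell to the left of the centre in 49.6 to 52.4% of Ada2b peaks and in 51.2 to 51.5% of Spt3 peaks, so neither factor leaned to one side.

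**Figure D1:**
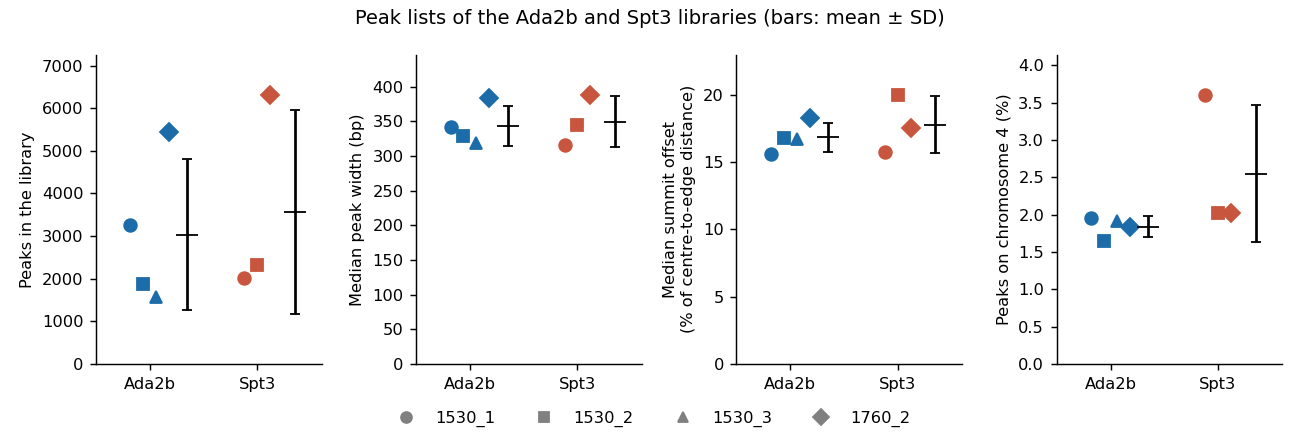
Number of peaks, median peak width (bp), median distance of the summit from the peak centre (% of the way from centre to edge) and share of peaks on chromosome 4 (%) of the 4 Ada2b and 3 Spt3 libraries. Marker shapes give the library number and bars the mean ± SD. The factors overlap in the first 3 panels, and on chromosome 4 every Ada2b share (1.65 to 1.96%) lies below every Spt3 share (2.02 to 3.60%).

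Chromosome 4, the small and mostly heterochromatic autosome, held a lower share of Ada2b than of Spt3 peaks. In the Ada2b libraries it carried 64, 31, 30 and 100 peaks, or 1.96, 1.65, 1.92 and 1.84% of the lists. In the Spt3 libraries it carried 73, 47 and 128 peaks, or 3.60, 2.02 and 2.03%. The factors did not overlap, but only the Spt3 library 1530_1 stood well above the others: its 95% Wilson interval, for counting error alone, was 2.88 to 4.51%, and those of the 4 Ada2b libraries spanned 1.17 to 2.73%. The mean difference was -0.709 percentage points (exact two-sided permutation, p = 0.0286, the smallest that 35 arrangements allow, and p = 0.229 adjusted over 16 tests), so it failed the correction. Without Spt3 1530_1 it was -0.181 points. Paired by number, the difference was -0.734 points and had one sign in the 3 pairs, where an exact sign-flip test cannot go below p = 0.25.

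No arm other than chromosome 4 separated the factors. Of the 14 sequences with peaks, 2 others did, both short assemblies of heterochromatin with few peaks. On 2RHet lay 0.213 to 0.496% of Ada2b peaks (4 to 27 a library) and 0.515 to 0.988% of Spt3 peaks (12 to 41 a library). On 3LHet lay 0.320 to 0.552% of Ada2b peaks (5 to 27) and 0.644 to 0.988% of Spt3 peaks (15 to 44). These sequences were picked out after their values were seen, and no test was made on them. The X chromosome held 12.3 to 14.5% of Ada2b peaks and 11.6 to 16.4% of Spt3 peaks (exact permutation, p = 0.943). Sequence off the main arms held 2.88 to 4.99% of Ada2b peaks and 2.98 to 6.91% of Spt3 peaks (exact permutation, p = 0.486).

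The next question was how many peaks of one factor overlapped, by 1 bp or more, a peak of the other in the library of the same number. Of the Ada2b peaks, 1547 of 3262 in pair 1530_1 (47.4%), 1218 of 1878 in pair 1530_2 (64.9%) and 4531 of 5446 in pair 1760_2 (83.2%) were shared. Of the Spt3 peaks, 1539 of 2025 (76.0%), 1108 of 2328 (47.6%) and 4461 of 6311 (70.7%) were shared. In each pair the factor with the shorter list had the larger share. The mean difference, Ada2b minus Spt3, was 0.400 percentage points (exact sign-flip test over 3 pairs, p = 1). With the 1563 best-scoring peaks of every list, the shares were 52.0, 56.0 and 57.6% for Ada2b, against 52.0, 51.9 and 57.3% for Spt3.

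Sharing was more common in the top than in the bottom 10% of every list by score. In between it rose at each step in both lists of 1760_2, and not in the lists of set 1530. In the top 10% of a list by score, 83.8, 87.2 and 100% of Ada2b peaks and 97.0, 93.5 and 97.2% of Spt3 peaks were shared. All 545 Ada2b peaks in the top 10% of 1760_2 had an Spt3 peak. In the bottom 10%, 27.7, 70.7 and 63.8% of Ada2b peaks and 60.5, 19.4 and 40.1% of Spt3 peaks were shared. The Ada2b list of 1530_2 had its least sharing in between: its share was 70.7 to 73.2% in the 3 lowest of 10 equal classes by score, 51.9 to 58.0% in classes 5 to 9, and 87.2% in the top class.

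**Figure D2:**
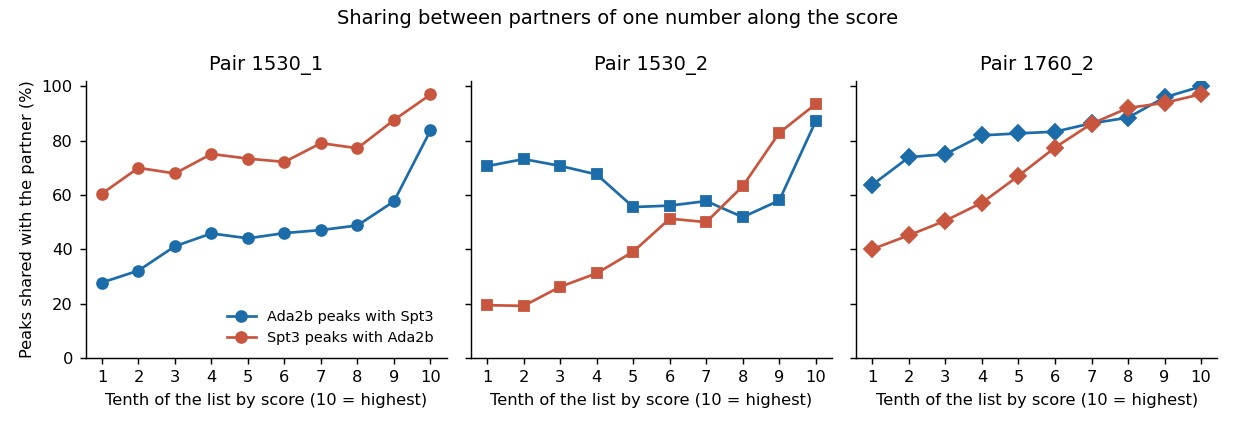
Share of peaks (%) that overlapped the partner factor in the library of the same number, over 10 equal classes of each list by score, for the 3 pairs. Blue points are Ada2b peaks with Spt3 and red points Spt3 peaks with Ada2b. All curves end between 83.8 and 100%, and the Ada2b curve of pair 1530_2 is lowest, at 51.9%, in class 8.

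Ranks within a list were compared next, a rank being the percent of the list's peaks with that score or a lower one. Shared Ada2b peaks had a median rank of 60.1, 47.3 and 54.6 in the 3 pairs, against 41.3, 53.7 and 28.3 for unshared Ada2b peaks. The order was thus turned round in pair 1530_2. The mean difference was 12.9 (exact sign-flip test, p = 0.5), and it was 22.5 without 1530_2, 9.93 without 1530_1 and 6.17 without 1760_2. Shared Spt3 peaks had a median rank of 54.1, 70.5 and 61.8, against 37.0, 33.6 and 26.2 for unshared Spt3 peaks. This order was the same in 3 of 3 pairs, with a mean difference of 29.9 (exact sign-flip test, p = 0.25, the smallest that 3 pairs allow).

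Shared peaks were wider in every pair. Median widths of Ada2b peaks were 395, 363 and 411 bp where shared and 303, 289 and 274 bp where unshared. Those of Spt3 peaks were 333, 404 and 443 bp where shared and 277, 295 and 286 bp where unshared. The log2 ratio of shared to unshared width averaged 0.43 for Ada2b and 0.45 for Spt3 (exact sign-flip tests, p = 0.25 each). Limiting the lists to the upper 50% by score moved the value for Ada2b to 0.30 and that for Spt3 to 0.15, and equal list lengths moved them to 0.25 for Ada2b and to 0.19 for Spt3.

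In set 1530 an unshared peak was seldom confined to its library once the long lists of 1760_2 were counted. Of unshared Ada2b peaks, 97.1% in 1530_1, 90.8% in 1530_2 and 37.3% in 1760_2 overlapped a peak in another Ada2b library. For shared Ada2b peaks these values were 99.5, 96.6 and 61.6%, so in set 1530 the classes were close by this count, which includes 1760_2. Of unshared Spt3 peaks, 97.1% in 1530_1, 78.4% in 1530_2 and 13.03% in 1760_2 overlapped one in another Spt3 library. For shared Spt3 peaks these values were 99.7, 94.8 and 50.4%. The long lists of 1760_2 thus held most of the unshared peaks without such support. Against lists of set 1530 alone the classes lay further apart, except for peaks of Ada2b 1530_2. Ada2b 1530_2 held 64.6% of shared and 37.0% of unshared peaks of Ada2b 1530_1. Ada2b 1530_1 held 86.9 and 83.5% of those of Ada2b 1530_2. Spt3 1530_2 held 81.3 and 39.1% of those of Spt3 1530_1, and Spt3 1530_1 held 77.9 and 42.2% of those of Spt3 1530_2. Many unshared peaks of set 1530 had the partner elsewhere: 1345 of the 1715 unshared Ada2b peaks of 1530_1 (78.4%) and 433 of the 660 of 1530_2 (65.6%) overlapped an Spt3 peak of 1760_2. Of the unshared Spt3 peaks, 276 of 486 in 1530_1 (56.8%) and 893 of 1220 in 1530_2 (73.2%) overlapped an Ada2b peak of 1760_2.

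In pair 1760_2 the partner's other libraries added little. Of its unshared peaks, 7.98% of the 915 for Ada2b and 2.76% of the 1850 for Spt3 overlapped any other library of the partner. Most unshared peaks were also not near misses. Within 500 bp of a partner peak lay 5.07, 7.27 and 14.8% of unshared Ada2b peaks and 9.05, 9.46 and 12.1% of unshared Spt3 peaks.

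Unshared Ada2b peaks were a small share on chromosome 4. There, 12 of 64 (18.8%), 5 of 31 (16.1%) and 10 of 100 (10.0%) Ada2b peaks had no Spt3 peak, against 52.6, 35.1 and 16.8% of all Ada2b peaks. Off the main arms, 21 of 115 (18.3%), 15 of 77 (19.5%) and 49 of 157 (31.2%) had none. Chromosome 4 was thus not alone in this in pairs 1530_1 and 1530_2. Of Spt3 peaks on chromosome 4, 21 of 73 (28.8%), 21 of 47 (44.7%) and 40 of 128 (31.2%) had no Ada2b peak, against 24.0, 52.4 and 29.3% of all Spt3 peaks. The counts on this chromosome are low, and the difference from other chromosomes was not tested.

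Pol II peaks, a readout that did not enter the choice of peaks, were set beside the classes. A peak counted as having Pol II when both Pol II libraries, labelled 1188_2 and 1632_1, overlapped it. These lists are long and broad, with 11440 and 10569 peaks that cover 17.5 and 11.1 Mb. Pol II lay at 76.7, 79.2 and 74.8% of shared Ada2b peaks, against 61.9, 44.2 and 36.9% of unshared ones. The difference had one sign in 3 of 3 pairs and averaged 29.2 percentage points (exact sign-flip test, p = 0.25).

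For Spt3 the pairs did not share one direction. Pol II lay at 76.2, 77.3 and 75.3% of shared Spt3 peaks, against 56.2, 88.2 and 54.5% of unshared ones. The mean difference was 9.98 points (exact sign-flip test, p = 0.5), it was 20.4 points without pair 1530_2, 4.95 without 1530_1 and 4.55 without 1760_2, and it turned to -4.26 points at equal list lengths. Of the 1220 unshared Spt3 peaks of 1530_2, 470 lay in the lowest 25% of that list by score, and 94.0% of these had Pol II.

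Unshared peaks of the 2 factors were then set against each other. Unshared Ada2b peaks had Pol II less often than unshared Spt3 peaks in 2 of 3 pairs, with a mean difference of -18.6 points (exact sign-flip test, p = 0.5). It was -5.90 points without pair 1530_2, -30.8 without 1530_1 and -27.5 at equal list lengths. The contrast was wider among strong peaks: in the top 25% by score, 38.1, 22.1 and 7.69% of unshared Ada2b peaks (n = 265, 149 and 52) had Pol II, against 55.8, 70.1 and 45.9% of unshared Spt3 peaks (n = 52, 87 and 74). Every Ada2b value there lay below every Spt3 value. Shared peaks of that class had Pol II at 64.1, 54.7 and 64.6% for Ada2b, against 68.6, 74.9 and 76.5% for Spt3. The class of the top 25% was chosen after the data were seen, and no test was made in it. In the lowest 25% by score, 78.9, 74.2 and 53.0% of unshared Ada2b peaks had Pol II, against 63.6, 94.0 and 56.2% of unshared Spt3 peaks. There the order was not the same in all pairs.

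Sgf11, of the deubiquitinase module, was found at most shared peaks. A peak counted as having Sgf11 when at least 2 of its 3 libraries overlapped it. This held for 95.9, 81.6 and 86.3% of shared Ada2b peaks and for 80.8, 70.2 and 42.0% of unshared ones. It held for 95.8, 87.7 and 86.1% of shared Spt3 peaks and for 58.8, 62.7 and 44.1% of unshared ones. Unshared Ada2b minus unshared Spt3 peaks gave a mean of 9.07 points, with signs that differed between the pairs (exact sign-flip test, p = 0.5). It was 2.65 points without pair 1530_1, 14.7 without 1760_2 and 2.52 in the upper 50% by score.

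Non-stop, its partner in that module, gave similar values. Both Non-stop libraries overlapped 96.7, 93.2 and 88.6% of shared Ada2b peaks and 80.6, 83.3 and 46.1% of unshared ones. They overlapped 96.6, 94.0 and 88.6% of shared Spt3 peaks and 69.1, 83.9 and 46.4% of unshared ones.

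Where both factors had a peak, their summits lay close together. The median distance between the summits of overlapping peaks was 26 bp in pair 1530_1, 41 bp in pair 1530_2 and 31 bp in pair 1760_2. Over the 12 pairs of an Ada2b with an Spt3 library it averaged 34.0 ± 5.24 bp (SD). Within a factor it was 24.3 ± 2.58 bp over 6 pairs of Ada2b libraries (SD) and 33.0 ± 8.54 bp over 3 pairs of Spt3 libraries (SD). The Spt3 library 1530_2 was in every pair with a median above 33 bp.

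Within factors the spacing was smaller than between them, by 6.74 bp on average over 9 and 12 pairs. The value within minus between factors was -6.74 bp (exact permutation of the factor labels, p = 0.0286, the smallest that 35 arrangements allow, and p = 0.229 adjusted over 16 tests). The paired form of the test, with labels exchanged only within a number, leaves out Ada2b 1530_3, and the value was then -4.50 bp (exact, p = 0.25). At equal list lengths it was -3.89 bp and in the upper 50% by score -3.85 bp (exact permutation, p = 0.0286 each, not adjusted). With lists of equal length the median distance averaged 17.9 ± 2.33 bp within Ada2b, 23.0 ± 3.61 bp within Spt3 and 23.5 ± 4.25 bp between the factors (SD, n = 6, 3 and 12 pairs), so the Spt3 pairs lay about as far apart as the pairs between factors. Signed distances had medians of 0, 0 and 1 bp, so summits of one factor were not displaced to one side of the other's.

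The bases covered by peaks were compared by the Jaccard index, the bases in both lists over the bases in either. It was 0.364, 0.369 and 0.555 for the 3 matched pairs of factors, and averaged 0.277 ± 0.0674 over the 9 pairs of other numbers (SD). It averaged 0.401 ± 0.155 over 6 Ada2b pairs and 0.294 ± 0.0796 over 3 Spt3 pairs (SD). Within factors the index averaged 0.366 over 9 pairs, against 0.315 over the 12 pairs between factors, a difference of 0.0506 that did not pass (exact permutation, p = 0.4). It was 0.00408 to 0.0930 without each library in turn. The form with labels exchanged only within a number leaves out Ada2b 1530_3, which has no partner, and gave 0.00786 (exact, p = 1). Measured as the percent of the shorter list, overlap was 87.8% within and 73.9% between factors (exact permutation, p = 0.0286, not adjusted).

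With lists of equal length the difference in the index was larger. With 1563 peaks a list, the index averaged 0.475 ± 0.136 within Ada2b, 0.366 ± 0.0626 within Spt3 and 0.288 ± 0.0557 between the factors (SD, n = 6, 3 and 12 pairs). The difference within minus between factors was then 0.150 (exact permutation, p = 0.0286, the smallest that 35 arrangements allow and not adjusted). With Ada2b 1530_3 left out and labels exchanged only within a number, it was 0.131 (exact, p = 0.25, the smallest this form allows). At that length 73.3 ± 9.68% of the peaks of an Ada2b list were found in another Ada2b list and 67.2 ± 8.43% of those of an Spt3 list in another Spt3 list, against 49.7 ± 4.04% between factors (SD, same pairs).

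Joining overlapping peaks of the 7 libraries gave 7482 sites. Both factors were present, each in 1 library or more, at 4485 sites (59.9%). Ada2b alone was present at 972 sites (12.99%) and Spt3 alone at 2025 sites (27.1%). Of the Ada2b-alone sites 549 belonged to Ada2b 1760_2 only, and of the Spt3-alone sites 1591 belonged to Spt3 1760_2 only. These counts follow the length of the lists.

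**Figure D3:**
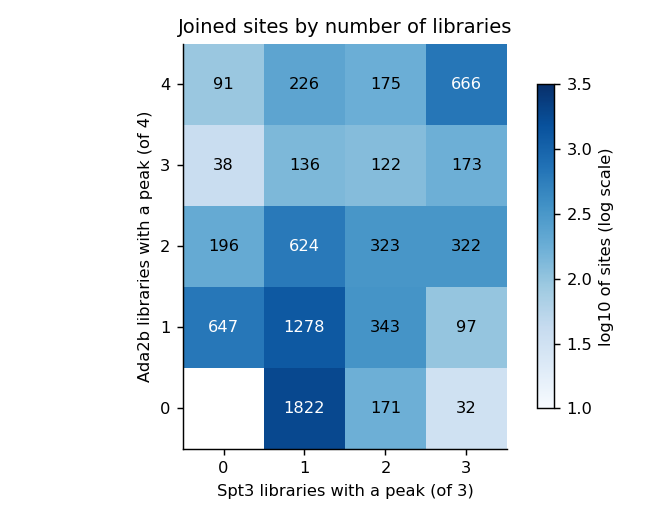
Joined sites by the number of Ada2b libraries (vertical, 0 to 4) and Spt3 libraries (horizontal, 0 to 3) with a peak; the count stands in each cell and the colour is its log10. The corner with all 7 libraries holds 666 sites, the corner with all 4 Ada2b and no Spt3 library 91, and that with all 3 Spt3 and no Ada2b library 32.

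All 7 libraries had a peak at 666 sites, which make up 8.90% of the sites. Their median width was 748 bp, and 76.4% had a peak in both Pol II libraries, against 64.9% of all sites. The summits of the 7 libraries spanned a median of 59 bp over the 487 of these sites with a single peak in each library. Their median rank was above the middle of every list, at 83.9, 70.3, 63.5 and 89.97 in the Ada2b libraries, against 64.8, 80.4 and 89.3 in the Spt3 libraries.

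The 5 sites with the highest mean rank show how strong shared peaks look. At dm3 4:89051-90408 the authors' fold enrichment, the ratio of ChIP to background at the summit, was 10.16, 11.35, 11.16 and 10.96 in the Ada2b libraries, against 8.55, 7.46 and 10.1 in the Spt3 libraries. At X:12552530-12553681 it was 11.97, 12.44, 12.92 and 12.56 for Ada2b, against 8.54, 7.26 and 9.80 for Spt3. Both sites carried both Pol II libraries, all 3 Sgf11 and both Non-stop libraries.

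The other 3 of these sites were 2R:8930575-8931204, 2L:12520127-12520825 and 4:1000304-1000912. At 2R:8930575-8931204, a site with no Pol II peak, the fold enrichment was 8.97, 9.94, 10.6 and 9.27 for Ada2b, against 8.33, 9.93 and 9.20 for Spt3, and the widths were 555 to 606 bp for Ada2b and 586 to 612 bp for Spt3. None of the 5 passed the test for a difference between the factors described next (limma, adjusted p = 0.173 to 0.803). They were chosen for a high rank over all libraries of both factors, so this does not show that the factors were equal there. No gene was named at any site, because the annotation at hand is of another genome build.

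The score at the 666 sites was more alike within a factor than between factors. The Spearman correlation of the score across these sites was 0.783 to 0.954 for the 6 pairs of Ada2b libraries and 0.513 to 0.833 for the 3 pairs of Spt3 libraries. It was 0.0775 to 0.506 for the 12 pairs of an Ada2b with an Spt3 library. No Ada2b and Spt3 pair reached the lowest value within a factor. Libraries of one number gave 0.506, 0.303 and 0.478, and those of other numbers averaged 0.316. These values describe 666 sites chosen for having a peak in each library, and sites are not independent replicates.

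Within Ada2b some libraries were closer than others. The correlation was 0.954 for 1530_1 with 1760_2 and 0.943 for 1530_2 with 1530_3, and 0.783 to 0.845 for the other pairs. The Spt3 libraries 1530_1 and 1760_2 gave 0.833, and 1530_2 gave 0.636 and 0.513 with them. This grouping crosses the library sets 1530 and 1760.

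**Figure D4:**
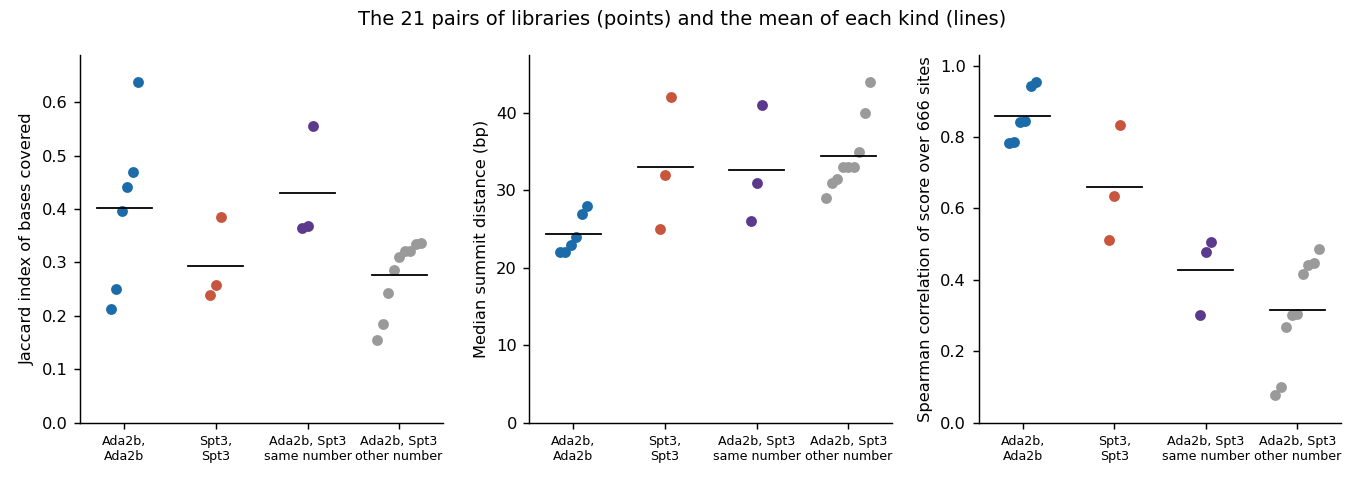
The 21 pairs of libraries by the Jaccard index of covered bases, the median distance between summits of overlapping peaks (bp) and the Spearman correlation of the score over the 666 sites with a peak in all 7 libraries. Points are pairs and lines the mean of each kind. The kinds overlap for the Jaccard index and the summit distance, and in the third panel all pairs between factors (0.0775 to 0.506) lie below all pairs within a factor (0.513 to 0.954).

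Each of the 666 sites was then tested for a difference in score between the factors (limma on quantile-normalised log2 scores, Benjamini-Hochberg adjustment over all 666). At an adjusted p below 0.05, 305 sites or 45.8% differed. The score was higher in Ada2b at 178 sites (26.7%) and higher in Spt3 at 127 sites (19.1%). All 305 had one sign in the 3 pairs, and 271 differed at least 2-fold in score. The signs came from the same normalised scores as the test, so they add no separate support. The median log2 difference, Ada2b minus Spt3, was 1.47 at the sites higher in Ada2b and -1.77 at those higher in Spt3.

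The count held at 280 to 381 sites under fold enrichment in place of score, other scalings among these sites, and the block of library numbers. That block leaves out Ada2b 1530_3, which has no partner. By contrast, 3 sites passed when the score was replaced by its rank in the whole list. Ranked among the 666 sites alone, a choice made after seeing that result, 299 sites passed, 288 of them among the 305. Normalising these sites to one distribution leaves a shift of the mean score between factors out of sight, and the score moves with depth. Of the sites named next for a difference, only 3R:3605455-3606712 passed by rank in the whole list.

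The largest difference towards Ada2b was at 3R:3605455-3606712. Its score was 1267, 559, 552 and 1709 in the Ada2b libraries, against 90, 64 and 134 in the Spt3 libraries, with no overlap. The log2 difference was 3.02 ± 0.33 (SE), an 8.12-fold difference after normalisation (limma, adjusted p = 0.00142). No Pol II library had a peak there, and all Sgf11 and Non-stop libraries did.

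The next 4 towards Ada2b were 3L:710345-710980, 3R:19347974-19348754, 2R:8324291-8325133 and 3L:1890683-1891399, with log2 differences of 2.48 to 2.56 (limma, adjusted p = 0.00166 to 0.00833). At 2R:8324291-8325133 the score was 1619, 709, 645 and 1738 for Ada2b, against 123, 72 and 406 for Spt3. At 3L:1890683-1891399 it was 783, 249, 252 and 1171 for Ada2b, against 49, 45 and 275 for Spt3, so that the Spt3 library 1760_2 lay within the Ada2b range before normalisation.

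The largest difference towards Spt3 was at 2L:10356449-10357058. Its score was 363, 51, 53 and 600 in the Ada2b libraries, against 1094, 398 and 1552 in the Spt3 libraries, and the log2 difference was -3.02 ± 0.56 (SE; limma, adjusted p = 0.00381). Spt3 1530_2 lay within the Ada2b range there before normalisation, and above the Ada2b library of its own number. The next 4 were 3R:4007011-4007773, 3L:6052127-6052678, 2L:8477897-8478893 and 2R:75364-75962, with log2 differences of -2.89 to -2.74 (limma, adjusted p = 0.000825 to 0.0103).

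The ranges of the scores as deposited overlapped at 2 of these 5 sites and not at the other 3. At 3R:4007011-4007773 the score was 213, 41, 77 and 284 for Ada2b, against 334, 513 and 1266 for Spt3. At 3L:6052127-6052678 the score was 273, 174, 242 and 631 for Ada2b, against 1030, 1976 and 2152 for Spt3, and the peaks were 287 to 459 bp wide for Ada2b and 473 to 544 bp for Spt3. At 2L:8477897-8478893 it was 309, 147, 151 and 457 for Ada2b, against 989, 1348 and 1626 for Spt3. Of the 5 sites, 4 had both Pol II libraries, and 3L:6052127-6052678 had none.

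Pol II was less common where the Ada2b score was the higher one. Both Pol II libraries had a peak at 87 of the 178 such sites (48.9%, 95% Wilson interval 41.6 to 56.2%). They had one at 104 of the 127 sites with a higher Spt3 score (81.9%, 74.3 to 87.6%) and at 318 of the 361 sites that were not called (88.1%, 84.3 to 91.0%). Sites are not replicates and the intervals cover counting error only, so no test was made. Sgf11 and Non-stop did not divide the sites in this way: all 3 Sgf11 libraries covered 99.4, 94.5 and 92.8%, and both Non-stop libraries 98.9, 100 and 99.4%, of the sites higher in Ada2b, higher in Spt3 and not called. The sites higher in Ada2b also had a median Ada2b rank of 92.4, against 63.5 and 66.6 in the other classes. By the score classes above, Pol II lay at 85.9, 95.9 and 77.9% of the lowest shared Ada2b peaks. It lay at 64.1, 54.7 and 64.6% of the highest. For shared Spt3 peaks these values were 87.8, 84.6 and 71.3%, against 68.6, 74.9 and 76.5%. Whether Pol II went with the Ada2b score or with the difference was not tested.

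**Figure D5:**
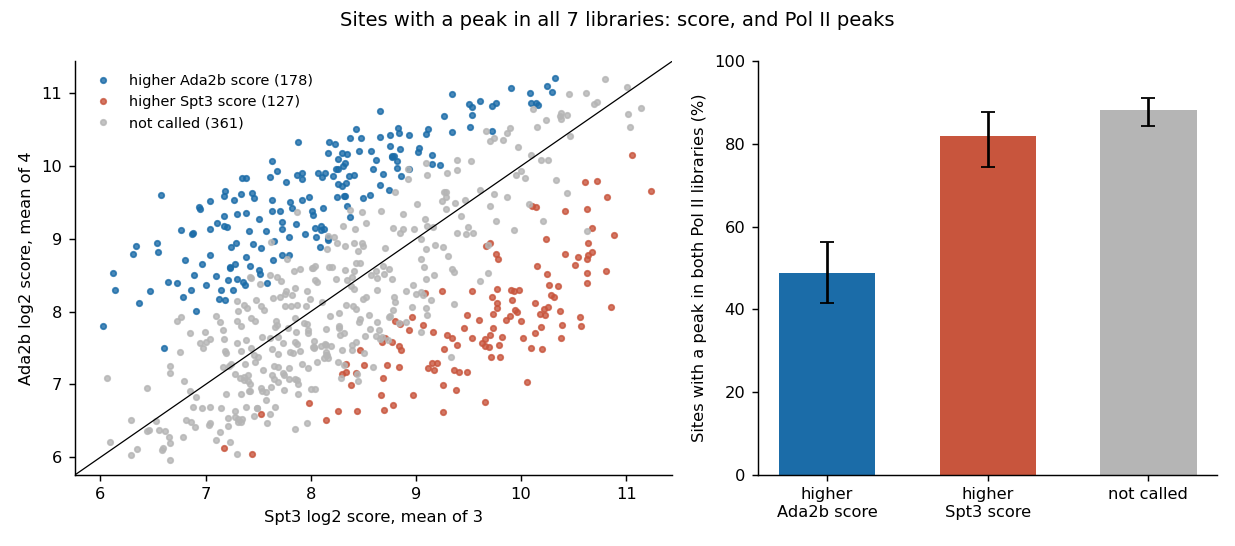
Left, mean quantile-normalised log2 score of the 4 Ada2b libraries (vertical) against that of the 3 Spt3 libraries (horizontal) at the 666 sites with a peak in all 7, with the line of equality; blue and red points differed at an adjusted p below 0.05 (limma). Right, share of each class (%) with a peak in both Pol II libraries, with 95% Wilson intervals: 48.9% at higher Ada2b, 81.9% at higher Spt3 and 88.1% at sites not called.

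Counts by chromosome were also unequal. On chromosome 4, 3 of 22 tested sites (13.6%) were higher in Ada2b and 15 (68.2%) higher in Spt3. On X, 27 of 79 (34.2%) were higher in Ada2b and 8 (10.1%) higher in Spt3. The arms 2L, 2R, 3L and 3R lay between, with 18.4 to 30.8% higher in Ada2b and 13.7 to 21.1% higher in Spt3. Off these 6 arms, 3 of 15 (20.0%) were higher in Ada2b and 7 (46.7%) higher in Spt3. These are counts over neighbouring sites and were not tested.

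Width moved with the score at these sites. Where the Ada2b score was higher, the median of the mean peak width at a site was 499 bp for Ada2b, against 388 bp for Spt3. Where the Spt3 score was higher, it was 397 bp for Ada2b, against 570 bp for Spt3. At the sites not called it was 500 bp for Ada2b and 525 bp for Spt3.

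At 91 sites all 4 Ada2b libraries and no Spt3 library had a peak. Their median rank was 59.6, 81.0, 78.2 and 54.0 in Ada2b 1530_1, 1530_2, 1530_3 and 1760_2. The lowest rank in a library was 8.52 to 27.0 and the highest 84.8 to 96.8. Both Pol II libraries covered 13 of them (14.3%, Wilson interval 8.54 to 22.9%), against 76.4% of the sites with all 7 libraries. Both Non-stop libraries covered 90 of the 91, whereas 2 or more Sgf11 libraries covered 25 (27.5%, 19.4 to 37.4%) and 48 had no Sgf11 peak. Of all sites, both Non-stop libraries covered 70.2% and 2 or more Sgf11 libraries 66.7%. At the sites with all 7 libraries these shares were 99.4 and 98.6%.

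At 32 sites all 3 Spt3 libraries and no Ada2b library had a peak. Their median rank was 65.4, 41.2 and 85.8 in the Spt3 libraries 1530_1, 1530_2 and 1760_2. Both Pol II libraries covered 14 (43.8%, 28.2 to 60.7%), both Non-stop libraries 18 (56.2%, 39.3 to 71.8%) and 2 or more Sgf11 libraries 9 (28.1%, 15.6 to 45.4%). Of all sites, these covered 64.9, 70.2 and 66.7%. On chromosome 4 lay 1 of the 91 Ada2b-only sites (1.10%) and no Spt3-only site, against 1.83% of all sites. On X lay 5 Ada2b-only sites (5.49%) and 5 Spt3-only sites (15.6%), against 15.7% of all sites. With 4 Ada2b and 3 Spt3 libraries the classes ask for unlike numbers of peaks.

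The 5 highest of the Ada2b-only sites in mean rank were 3R:13471906-13472671, 2R:2029488-2030148, 2R:2048881-2050416, 2R:12106548-12107834 and 2R:9317437-9319893. At 3R:13471906-13472671 the fold enrichment was 4.67, 8.06, 7.24 and 3.93, with widths of 728 to 763 bp. In each of the 5 the libraries 1530_2 and 1530_3 ranked at 93.3 to 96.8, and 1530_1 and 1760_2 at 77.1 to 84.8. Of the 5, 4 had no Pol II peak, and both Non-stop libraries covered all 5.

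The 5 highest of the Spt3-only sites in mean rank were 3R:4633894-4634690, 2R:10317043-10317725, 2L:18615948-18616458, 3R:19783901-19784611 and 3R:14228288-14229240. At 3R:4633894-4634690 the fold enrichment was 3.54 in 1530_1, 2.84 in 1530_2 and 6.48 in 1760_2. The 5 sites ranked at 91.9 to 95.9 in 1760_2 and at 50.2 to 72.4 in 1530_2. The site 2L:18615948-18616458 had no peak of Sgf11, Non-stop or Pol II.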

How the data were processed

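Peak lists of 4 Ada2b and 3 Spt3 libraries were used, with those of 3 Sgf11, 2 Non-stop and 2 Pol II libraries as independent readouts. Groups and numbers came from the labels. The authors sequenced 50-bp single reads (CASAVA 1.8.2), aligned them to dm3 with Bowtie and called peaks per library with MACS2 at default settings. The versions of the last tools are not given in the sources used here, nor is the control used in calling. Total chromatin of one number, if used, would serve both factors of that number. The deposited score is the whole part of 10 times the −log10 q value. The fold enrichment deposited with each peak is the ratio at its summit over the background that MACS2 modelled.

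The members, tests and lists were chosen with earlier results of these data known. All peaks on all chromosomes were kept, an overlap of 1 bp counted as shared, and joined peaks formed sites. Library values were compared by exact permutation of the factor labels over 7 libraries (35 arrangements), pairs by exact sign-flip tests, both two-sided, with Benjamini-Hochberg adjustment over 16 tests. Scores at sites with a peak in all 7 libraries were compared with limma 3.58.1 in R 4.3.3. Other steps used Python 3.11.15, NumPy 2.4.6 and SciPy 1.17.1, with overlaps checked against bedtools 2.31.1, and the functions were tested on simulated data. Intervals are 95% Wilson intervals.

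Named sites were the 5 with the highest mean rank in all 7 libraries, the 5 largest differences in each direction among sites that passed with one sign in all 3 pairs, and the 5 highest in mean rank among sites of all 4 Ada2b or all 3 Spt3 libraries alone. Coordinates are 1-based in dm3. Pairing was checked on deviations of rank from the factor mean over 666 sites: libraries of one number correlated at 0.311, 0.410 and 0.414, and those of other numbers at -0.570 to 0.351. Ada2b 1530_1 correlated more with Spt3 1760_2 (0.351) than with Spt3 1530_1 (0.311), so the check did not single out that pair. Deviations from a factor mean cancel within the factor, so these values are not independent of each other. Alternatives changed list length, score limit, overlap, arms, scaling, block and libraries.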

Additional observations from a re-analysis of the deposited data

Results flagged for a closer look

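In all, 2 values of the 4 Ada2b libraries stood apart from the other three by Dixon's criterion, among 30 measures put to it, of which chance flags about 1 in 20. The 95th percentile of peak width was 758 bp in Ada2b 1530_1, against 907 to 928 bp in the other three. The widest peak was 8143 bp in Ada2b 1760_2, against 11868 to 11879 bp in the other three, whose widest peaks lay on the mitochondrial chromosome. The 3 Spt3 libraries are too few for this criterion.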

How the results depend on the processing

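The tests of 16 library and pair results are limited by the number of libraries: 3 pairs cannot give an exact p below 0.25, and leaving out a library leaves designs that cannot pass 0.05. Differences in median log2 width, on X, off the main arms, in summit position and in the share with the partner changed sign in some alternatives. Without each library in turn they ranged over -0.0962 to 0.0519, -0.686 to 1.67 points, -1.88 to 0.0871 points and -1.95 to 0.157 points, and without each pair the last over -8.03 to 14.9 points. With the replicate block, which leaves out Ada2b 1530_3, the width difference was 0.00965. The partner difference was -28.6, 17.3 and 12.5 points in the 3 pairs, so its mean of 0.400 points averaged opposite values. This mean was -0.843 points in the upper 50% by score and -0.384 points on the main arms. Pol II at shared minus unshared Spt3 peaks was -4.26 points at equal list length and -4.35 points in the upper 50%.

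For the 16 library and pair results a call is an exact p below 0.05 before adjustment, and none of them passed after adjustment. The chromosome 4 difference kept its sign but not its call, at -0.734 points with the replicate block, -1.22 at equal list length, -1.29 in the upper 50%, -0.968 in set 1530 alone, and -0.975 to -0.181 without each library. Summit spacing within minus between factors lost its call at -4.50 bp with the block, -9.42 bp in set 1530 alone, -5.33 bp there at equal list length and -2.53 bp with the block at equal list length (both chosen after seeing the data), and -9.51 to -4.50 bp without each library. The overlap difference gained such an unadjusted call at equal list length (0.150) and as percent of the shorter list (13.9 points). With no block, the paired results kept their signs and again had no call. Of 666 sites, 381 passed with the block, which leaves out Ada2b 1530_3, 246 to 310 without each library, and 3 by rank in whole lists. Of the 130 alternatives for the 10 sites named for a score difference, 121 kept sign and call and 9 kept the sign alone. All 9 used the rank in whole lists. There only 3R:3605455-3606712 kept its call (limma, adjusted p = 0.00594), and the other named sites had adjusted p of 0.0976 to 0.273. Causes were not tested.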
